A study of Mus musculus with 6 samples.

Results

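The genes described here drive a cell through mitosis: cyclins and their kinase, mitotic kinases, the spindle checkpoint, the anaphase-promoting complex, condensin and the machinery of cytokinesis. They were chosen by name, as rows of the deposited table whose gene name stands on a list of 45 and whose mean over the 6 hearts is at least 10. This gave 44 genes of the 45706 in the table and of the 15556 with a mean of at least 10. The remaining name on the list, Diaph3, stands in the table as Diap3 (ENSMUSG00000022021), so the name did not match. Its values are given apart and are not counted.

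Poly(A) RNA of whole embryonic mouse hearts of strain C57BL6/J was sequenced in 2 groups of 3. The double knockouts (aMyHC_RBPMS-2) were RBPMS flox/flox and RBPMS2 flox/flox and carried the aMyHC Cre transgene. Their littermate controls (aMyHC_Ctrl) were RBPMS flox/flox and RBPMS2 flox/flox without Cre, so both groups carried the loxP-flanked alleles. RBPMS and RBPMS2 are RNA-binding proteins of heart and smooth muscle. The alpha-myosin heavy chain promoter drives Cre in cardiomyocytes, and a whole heart also holds endocardial, epicardial, fibroblast, mural and blood cells, in which this promoter is not used to delete genes. No label states the embryonic day. Cre was present in every knockout and in no control, so the transgene and the deletion cannot be told apart.

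The deposited values were read numbers divided by a factor per heart and rounded, called values here. Estimated depth before that division was 14759077 to 25833528 reads in the knockouts and 12959798 to 21334209 in the controls. Rbpms stood at 1134, 1117 and 852 in knockout replicates 1 to 3, against 6998, 3868 and 7656 in control replicates 1 to 3. Rbpms2 stood at 879, 1003 and 911 in the knockouts, against 1711, 1362 and 1998 in the controls. Both genes were lower in every knockout than in every control, with log2 fold changes of -2.53 (SE 0.22) for Rbpms and -0.84 (SE 0.12) for Rbpms2, and neither was at 0. Cardiomyocyte genes were abundant in both groups: 12 markers summed to 758028 to 873561 in the knockouts and 916345 to 949433 in the controls.

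Cyclin A and cyclin B switch on CDK1, which starts mitosis. The spindle checkpoint, with BUB1, BUBR1 (the product of Bub1b), BUB3, MAD2 and TTK, holds the anaphase-promoting complex in check until every chromosome is attached. That complex, helped first by CDC20 and later by CDH1 (the product of Fzr1), then destroys securin and the cyclins, separase opens cohesin, and the contractile ring divides the cell. Embryonic cardiomyocytes still divide, and most of these transcripts peak in the G2 and M phases. In promoters of such genes, the MuvB complex is known to bind the cell cycle genes homology region (CHR), and the factor NF-Y binds CCAAT boxes beside it.

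The promoters are shown first, because many of the members hold the same letters there. The letters were not used to choose the members. The members were chosen as mitotic genes, however, whose promoters are known to carry them, so the shares below are a description. RefSeq windows of 300 bases, 250 before and 50 after the annotated start (GRCm38.p6), were found for 38 of the 44 genes. Those of Aurkb, Ccna2, Cdc25c, Foxm1, Smc4 and Tpx2 were not used here. Of the 23 members with both a CHR and a CCAAT box, Prc1, Ccnb2 and Cdc20 were taken as examples. The 6 windows below are theirs, that of Ect2 (the largest fall) and those of Bub3 and Pttg1, which did not pass the test. Each is written 5′ to 3′ on the strand of its gene, with the letters TTTGAA (CHR) and CCAAT, or either one reversed and complemented, in capitals:
Ect2 (GRCm38.p6 chr3:27153829-27154128, minus strand): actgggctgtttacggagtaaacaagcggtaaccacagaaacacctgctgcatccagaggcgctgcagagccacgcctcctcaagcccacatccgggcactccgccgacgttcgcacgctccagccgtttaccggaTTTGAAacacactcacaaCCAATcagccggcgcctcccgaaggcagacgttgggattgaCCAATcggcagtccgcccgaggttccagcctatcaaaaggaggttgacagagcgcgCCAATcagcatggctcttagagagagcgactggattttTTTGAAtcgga
Prc1 (GRCm38.p6 chr7:80294201-80294500, plus strand): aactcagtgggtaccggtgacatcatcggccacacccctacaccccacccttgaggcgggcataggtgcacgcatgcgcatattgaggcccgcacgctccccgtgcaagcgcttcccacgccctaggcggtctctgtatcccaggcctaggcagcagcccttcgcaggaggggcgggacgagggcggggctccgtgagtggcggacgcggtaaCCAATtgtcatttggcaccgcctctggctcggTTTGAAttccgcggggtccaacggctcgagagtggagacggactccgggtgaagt
Ccnb2 (GRCm38.p6 chr9:70421505-70421804, minus strand): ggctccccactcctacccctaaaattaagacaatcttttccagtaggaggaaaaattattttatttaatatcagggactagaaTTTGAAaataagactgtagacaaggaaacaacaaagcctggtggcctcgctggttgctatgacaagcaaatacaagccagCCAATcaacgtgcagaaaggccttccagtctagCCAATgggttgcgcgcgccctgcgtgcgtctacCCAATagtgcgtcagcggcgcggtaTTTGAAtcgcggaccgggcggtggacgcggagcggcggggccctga
Cdc20 (GRCm38.p6 chr4:118437294-118437593, minus strand): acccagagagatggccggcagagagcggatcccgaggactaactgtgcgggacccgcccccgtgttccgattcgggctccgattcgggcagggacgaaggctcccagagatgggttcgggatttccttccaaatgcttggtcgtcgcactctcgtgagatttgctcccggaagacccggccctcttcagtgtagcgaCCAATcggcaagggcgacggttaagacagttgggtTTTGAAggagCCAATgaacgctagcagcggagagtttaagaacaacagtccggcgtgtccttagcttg
Bub3 (GRCm38.p6 chr7:131560120-131560419, plus strand): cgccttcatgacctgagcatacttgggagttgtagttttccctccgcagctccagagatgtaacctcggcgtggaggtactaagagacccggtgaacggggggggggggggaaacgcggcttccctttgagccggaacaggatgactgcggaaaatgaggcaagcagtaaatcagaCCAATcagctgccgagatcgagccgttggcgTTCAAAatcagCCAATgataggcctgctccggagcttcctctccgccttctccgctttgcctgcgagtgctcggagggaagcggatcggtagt
Pttg1 (GRCm38.p6 chr11:43425932-43426231, minus strand): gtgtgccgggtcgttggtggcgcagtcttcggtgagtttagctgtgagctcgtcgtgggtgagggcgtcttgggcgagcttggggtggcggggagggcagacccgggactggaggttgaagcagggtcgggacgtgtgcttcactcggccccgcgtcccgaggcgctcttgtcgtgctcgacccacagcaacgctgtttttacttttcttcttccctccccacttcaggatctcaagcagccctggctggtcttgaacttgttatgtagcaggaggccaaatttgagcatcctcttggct

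Searched on both strands, TTTGAA was present in 30 of 42 member windows (71.4%), against 17.9% of all 32851 windows. CCAAT was present in 31 of the 42 (73.8%), against 37.4% of all windows. Both together stood in 26 of the 42 (61.9%), against 6.95% of all. The E2F letters TTTGGCGC or TTTCGCGC stood in 2 of the 42, those of Cdk1 and Ncapd2, against 0.813% of all. In the member windows 1 pair of matches overlapped, both of them CCAAT boxes of Ube2c. Ect2, Prc1, Cep55 and Bub3 had a pair of windows each, which overlap and so are not independent. Of 40 TTTGAA matches in member windows, 28 (70.0%) began within 50 bases of the start, against 25.3% of such matches in all windows. CCAAT matches lay further upstream, with a median first base 76 bases before the start and TTTGAA at 21 bases before it. In all windows these medians were -92 for CCAAT and -124 for TTTGAA. Of the CCAAT matches of members 32.9% began within 50 bases of the start, near the 28.2% in all windows. The 26 members with TTTGAA had a median log2 fold change of -0.69 and the 12 without it -0.60, so members of both kinds were lower in the knockouts. Plk4, Cit, Nusap1, Ncaph, Mad2l1 and Mybl2 fell, and their windows held none of the letters searched. Bub3 holds TTTGAA on the opposite strand and 2 CCAAT boxes. In the Pttg1 window none of these letters was found, which says only that this window does not hold them. The window (43425932 to 43426231) lies wholly inside the GENCODE span of the gene (43420250 to 43426251). No base upstream of that span was searched for Pttg1.

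**Figure D1:**
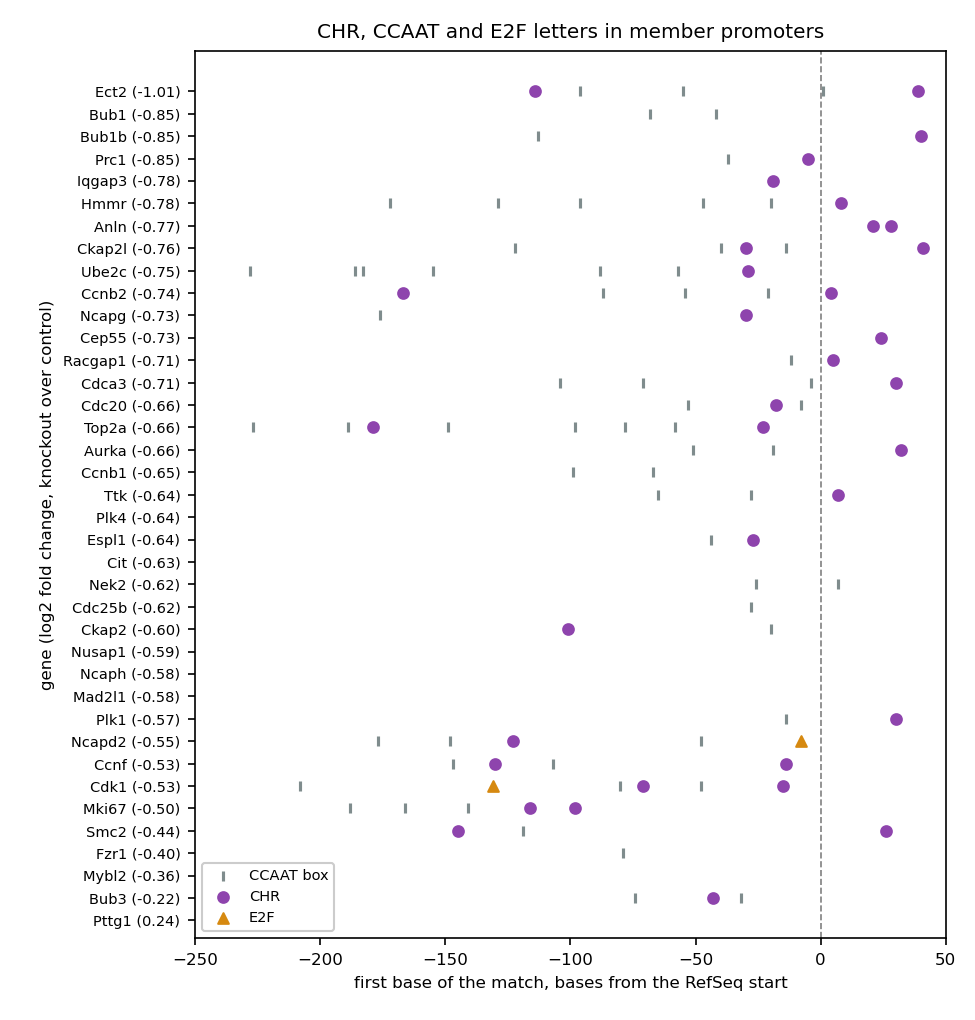
Matches to the CHR, CCAAT box and E2F letters in the first RefSeq window of 38 members, with the distance of the first base of each match from the annotated start in bases on the x axis and genes ordered by log2 fold change (in brackets) on the y axis. Many CHR matches lie near the start, in genes from Ect2 (-1.01) to Bub3 (-0.22). Those of Mki67, Ncapd2 and Ckap2 lie further upstream, and Bub1, Ccnb1, Nek2, Cdc25b and Fzr1 have no CHR match. The rows of Plk4, Cit, Nusap1, Ncaph, Mad2l1, Mybl2 and Pttg1 hold no match of any kind.

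Mitotic transcripts were lower in the double knockout hearts across every role. Of the 44 genes, 42 fell (95.5%), at an adjusted p under 0.05 in limma on log2(value + 1) with Benjamini-Hochberg adjustment over 15556 genes, against 8.56% of all genes tested that fell. None rose in limma, against 8.61% of all genes tested. Members with an unadjusted p under 0.05 on the higher side numbered 1, Pttg1, and limma-voom likewise made 0 calls there. In 43 of the 44 all 3 knockouts lay below all 3 controls, which was so for 17.9% of all genes tested. The median log2 fold change of the members was -0.64, against 0.00 over all genes tested, and its quartiles were -0.73 and -0.56. In a stricter limma test, whose null was a change of 1.2-fold, 28 members were lower and 0 higher, against 2.69% of all genes called, of which 1.33% were lower and 1.36% higher.

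The summed value of the 44 genes was 56452, 51464 and 53023 in knockout replicates 1 to 3, against 83437, 82200 and 84810 in control replicates 1 to 3. The groups stood apart with little spread inside either. Relative to the control mean of each gene, the median member stood at 66.9%, 61.1% and 64.5% in the knockouts and at 98.6%, 98.6% and 103% in the controls. Knockout replicate 2 was the lowest knockout for 24 of the 44 genes, and replicate 1 the highest for 25. Since these are bulk samples, fewer dividing cells and less of each mRNA per cell cannot be told apart.

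**Figure D2:**
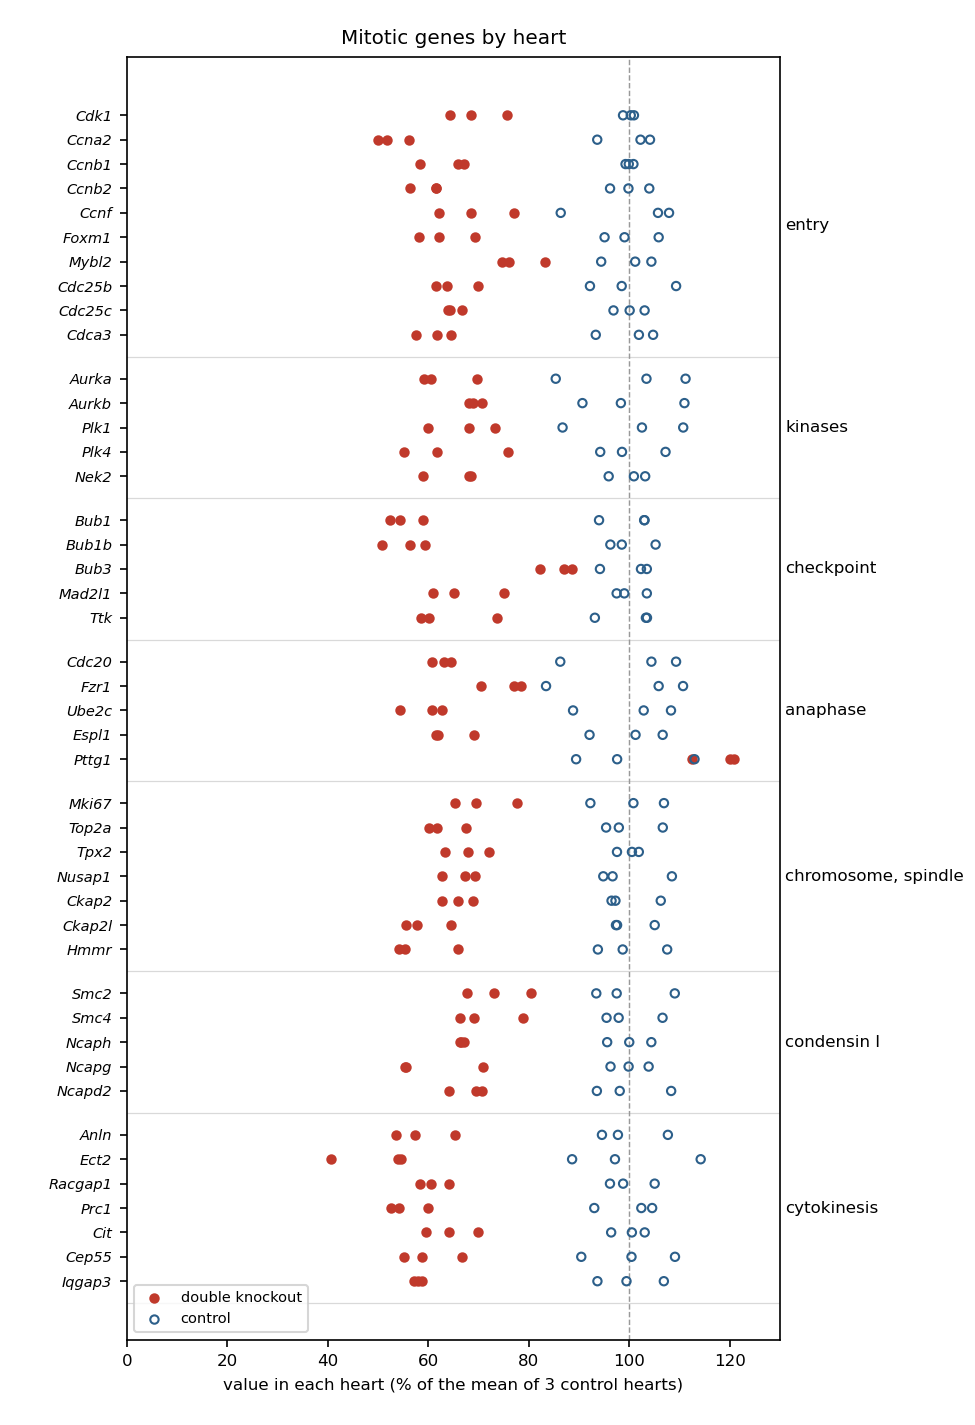
Value of each of the 44 genes in each heart as a percentage of the mean of the 3 controls (x axis), grouped by role down the page, with filled points for double knockouts and open points for controls. Knockout points lie left of all control points in every row except Pttg1, whose points overlap.

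Among the cyclins, Cdk1 and the factors of mitotic entry, all 10 genes fell, with log2 fold changes from -0.93 to -0.36. Ccna2 encodes cyclin A2, the cyclin of S and G2 phase (ENSMUSG00000027715; mm10 chromosome 3, 36564865 to 36572150, minus strand). It stood at 2521, 2245 and 2328 in the knockouts, against 4681, 4209 and 4596 in the controls. Every knockout lay far below every control, and the knockout mean was 52.6% of the control mean. The log2 change came to -0.93 (SE 0.07; adjusted p = 0.000239 in limma). Cdk1, the kinase that cyclins A and B activate, stood at 1918, 1634 and 1738 in the knockouts, against 2506, 2561 and 2545 in the controls. It changed by -0.53 (SE 0.07; adjusted p = 0.00152 in limma). The SD of Cdk1 was 28.3 around 2537 in the controls and 143.7 around 1763 in the knockouts, and this difference in spread was not tested.

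Ccnb1, encoding cyclin B1, stood at 1641, 1452 and 1671 in the knockouts and at 2508, 2485 and 2469 in the controls. Its log2 change came to -0.65 (SE 0.07; adjusted p = 0.000671 in limma), close to that of its relative Ccnb2, at -0.74 (SE 0.07). The log2 ratio of Ccnb1 to Cdk1 was -0.22, -0.17 and -0.06 in the knockouts, against 0.00, -0.04 and -0.04 in the controls. The ratios did not overlap, with a difference of -0.12 (exact permutation p = 0.10, the smallest possible, and adjusted p = 0.125 over 5 partner pairs), which was -0.17 to -0.08 without single hearts. Of the 75-base stretches in Ccnb1 transcripts, 18.9% also occur in processed pseudogenes, so its value is less certain. Of the transcription factor genes, Foxm1, which drives late cell cycle genes, changed by -0.66 (SE 0.08), and Mybl2, which encodes the MuvB partner B-MYB, by -0.36 (SE 0.10). Mybl2 was at 236, 232 and 258 in the knockouts, against 293, 314 and 324 in the controls, and passed narrowly (limma adjusted p = 0.0329). Its call was lost without knockout replicate 1 or 2 or control replicate 2 or 3, with adjusted p-values in limma from 0.0788 to 0.120, and 17.1% of its stretches are shared with other genes. The phosphatase genes Cdc25b and Cdc25c, whose products activate CDK1, changed by -0.62 each (SE 0.08 and 0.09). Cdca3, whose product promotes destruction of the CDK1 inhibitor WEE1, changed by -0.71 (SE 0.07). Ccnf, encoding the F-box protein cyclin F, changed by -0.53 (SE 0.11) and lost its call without knockout replicate 2 (limma adjusted p = 0.0511).

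All 5 mitotic kinase genes outside the checkpoint fell. Nek2, encoding a kinase that splits the centrosomes, had the smallest p. It stood at 641, 552 and 638 in the knockouts, against 898, 945 and 966 in the controls, which gives -0.62 on the log2 scale (SE 0.08; adjusted p = 0.00145 in limma). Aurkb, the kinase of the chromosomal passenger complex, changed least. It was at 668, 675 and 694 in the knockouts and at 889, 964 and 1088 in the controls, which gives -0.52 on the log2 scale (SE 0.09; adjusted p = 0.00327 in limma). In both genes the highest knockout stayed below the lowest control. Aurka, the kinase of the spindle poles, changed by -0.66 (SE 0.11), and Plk1, the polo kinase of mitotic entry, by -0.57 (SE 0.11). Plk4, which starts centriole duplication, was the least abundant member, at 70, 57 and 51 in the knockouts and 99, 91 and 87 in the controls. Its log2 change of -0.64 (SE 0.17; adjusted p = 0.0279 in limma) rested on few reads. Its call was lost without knockout replicate 2 or 3 or any 1 of the 3 controls, with limma adjusted p-values from 0.0606 to 0.0875.

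In the spindle checkpoint 4 of 5 genes fell. Bub1, encoding a kinase of the kinetochore that also marks centromeric histone H2A, stood at 756, 672 and 696 in the knockouts, against 1320, 1204 and 1319 in the controls. Its log2 change came to -0.85 (SE 0.08; adjusted p = 0.000329 in limma). Bub1b stood at 1226, 1050 and 1164 in the knockouts, against 1988, 2174 and 2035 in the controls, and changed by the same amount, -0.85 (SE 0.08, limma adjusted p = 0.000329). Ttk, the kinase MPS1, changed by -0.64 (SE 0.11) and Mad2l1, encoding MAD2, by -0.58 (SE 0.09).

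Bub3 encodes the small protein that carries BUB1 and BUBR1 to the kinetochore (ENSMUSG00000066979; chromosome 7, 131560222 to 131571895, plus strand). It stood at 1417, 1341 and 1445 in the knockouts, against 1534, 1667 and 1686 in the controls. The groups did not overlap, but the gap was small: the log2 fold change was -0.22 (SE 0.07, 95% interval -0.37 to -0.06) and missed the threshold (limma adjusted p = 0.0547). It passed without control replicate 1 (adjusted p = 0.0326), with the replicate block (0.0328) and under the stricter filter (0.0498). Within each heart, the log2 ratio of Bub1b to Bub3 was -0.21, -0.35 and -0.31 in the knockouts, against 0.37, 0.38 and 0.27 in the controls. The difference was -0.63 and the ratios did not overlap. An exact two-sided permutation test gave p = 0.10, the smallest that 3 against 3 hearts allow, and 0.125 adjusted over 5 pairs of partner genes, so no pair could pass.

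Among the genes of the anaphase-promoting complex and sister separation, 4 of 5 fell and 1 did not pass on the higher side. Ube2c encodes the enzyme that supplies ubiquitin to the complex. It stood at 1712, 1533 and 1770 in the knockouts, against 2502, 2898 and 3051 in the controls, which gives -0.75 on the log2 scale (SE 0.09; adjusted p = 0.000842 in limma). Cdc20, the coactivator used in early mitosis (ENSMUSG00000006398; chromosome 4, 118432901 to 118437352, minus strand), stood at 1145, 1101 and 1171 in the knockouts, against 1565, 1894 and 1983 in the controls. It changed by -0.66 (SE 0.09; adjusted p = 0.00154 in limma). Control replicate 1 was the lowest control for either gene, yet exceeded all 3 knockouts.

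Fzr1 encodes CDH1, the coactivator of mitotic exit and G1. It was at 1206, 1341 and 1317 in the knockouts, against 1426, 1809 and 1892 in the controls, which gives -0.40 on the log2 scale (SE 0.10; adjusted p = 0.0266 in limma). The call was lost without any 1 of the hearts except control replicate 1, with limma adjusted p-values from 0.0520 to 0.0974. The log2 ratio of Cdc20 to Fzr1 was -0.07, -0.28 and -0.17 in the knockouts, against 0.13, 0.07 and 0.07 in the controls, a difference of -0.27 (exact permutation p = 0.10, adjusted p = 0.125). The ratios did not overlap between groups.

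Espl1, encoding separase, the protease that cuts cohesin, stood at 673, 677 and 754 in the knockouts and at 1006, 1106 and 1165 in the controls. It changed by -0.64 (SE 0.08; adjusted p = 0.00128 in limma). Pttg1 encodes securin, the inhibitor and chaperone of separase (ENSMUSG00000020415; chromosome 11, 43420250 to 43426251, minus strand). It stood at 647, 651 and 606 in the knockouts, against 482, 609 and 526 in the controls. Pttg1 was the only member whose groups overlapped and the only one with a positive log2 fold change, 0.24 (SE 0.10, 95% interval 0.03 to 0.46), which did not pass (limma adjusted p = 0.116). The log2 ratio of Pttg1 to Espl1 was -0.06, -0.06 and -0.31 in the knockouts, against -1.06, -0.86 and -1.15 in the controls. That difference, 0.88, was the largest in size of the 5 pairs, with no overlap (exact permutation p = 0.10, adjusted p = 0.125). No exon of Pttg1 overlaps another annotated gene, and none of its 75-base stretches is shared.

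**Figure D3:**
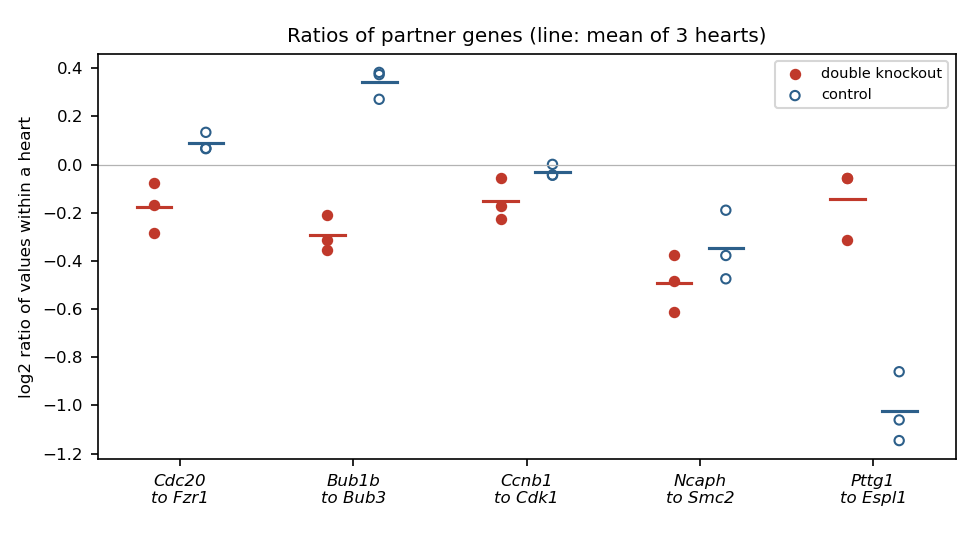
Log2 ratio of the values of 2 partner genes within each heart (y axis) for 5 pairs (x axis), with double knockouts on the left of each pair as filled points, controls on the right as open points, and a line at the mean of 3 hearts. The ratio of Pttg1 to Espl1 averages -0.14 in the knockouts and -1.02 in the controls, and that of Bub1b to Bub3 averages -0.29 and 0.34.

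The 7 genes of the chromosome surface and of spindle assembly all fell. Mki67 encodes Ki-67, the coat of mitotic chromosomes and the usual marker of dividing cells, and changed least of the 7. It was at 4648, 3908 and 4166 in the knockouts, against 6403, 6039 and 5526 in the controls, which gives -0.50 on the log2 scale (SE 0.08; adjusted p = 0.00340 in limma). Ckap2l, encoding a spindle protein, had the smallest p in the group. It was at 1163, 1004 and 1042 in the knockouts and at 1756, 1760 and 1895 in the controls, a change of -0.76 (SE 0.08, limma adjusted p = 0.000497). Neither gene showed overlap between the groups. Hmmr, encoding a microtubule-binding protein, changed by -0.78 (SE 0.09), Top2a, the topoisomerase that untangles sister chromatids, by -0.66 (SE 0.07), and Ckap2, a spindle protein gene, by -0.60 (SE 0.08). Nusap1 changed by -0.59 (SE 0.08) and Tpx2, whose product activates Aurora A on the spindle, by -0.56 (SE 0.07).

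Condensin I compacts chromosomes in mitosis. Its ring is made of SMC2 and SMC4, which it shares with condensin II, and of the subunits encoded by Ncaph, Ncapg and Ncapd2. All 5 genes fell, with log2 fold changes from -0.73 for Ncapg (SE 0.10) to -0.44 for Smc2 (SE 0.09). Smc4 changed by -0.49 (SE 0.08) and Ncapd2 by -0.55 (SE 0.07). Ncaph was at 780, 773 and 770 in the knockouts, against 1161, 1110 and 1212 in the controls (log2 fold change -0.58, SE 0.07, limma adjusted p = 0.000829). Smc2 stood at 1191, 1080 and 1000 in the knockouts, against 1613, 1442 and 1382 in the controls (limma adjusted p = 0.00799). The log2 ratio of Ncaph to Smc2 was -0.61, -0.48 and -0.38 in the knockouts, against -0.47, -0.38 and -0.19 in the controls. These ranges overlapped, with a difference of -0.14 (exact permutation p = 0.30, where 0.10 is the smallest possible). Without control replicate 3 the difference was -0.06, and without knockout replicate 1 it was -0.08.

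The 3 condensin II genes had a median log2 fold change of -0.31, against -0.55 for condensin I. Ncapd3, at 678, 629 and 575 in the knockouts and 827, 765 and 791 in the controls, changed by -0.34 (SE 0.08; adjusted p = 0.0200 in limma). Ncapg2 changed by -0.31 (SE 0.09; adjusted p = 0.0499 in limma) and Ncaph2 by -0.21 (SE 0.07), which did not pass (adjusted p = 0.0650). With the values scaled to equal totals, or without control replicate 2, 1 of the 3 passed in limma. The same count of 1 came with no filter, a pseudocount of 0.1, quantile normalization, sex as a term or limma-voom. Against a fold change of 1.2, 0 passed, and 0 passed without control replicate 3 or without knockout replicate 2 or 3. All 3 passed with the replicate block. The difference between the condensins was not tested.

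The cytokinesis genes held the largest falls of the roles, with a median log2 fold change of -0.77 over 7 genes, all of which fell. Ect2 encodes the exchange factor that activates RhoA at the cell equator (ENSMUSG00000027699; chromosome 3, 27097222 to 27153878, minus strand). It was described in full after its values were seen. It stood at 735, 727 and 549 in the knockouts, against 1540, 1195 and 1310 in the controls, so that the knockout mean was 49.7% of the control mean. The log2 change came to -1.01 (SE 0.13; adjusted p = 0.00111 in limma). Racgap1, whose product recruits ECT2 to the midzone, changed by -0.71 (SE 0.07). Prc1, which bundles the midzone microtubules (ENSMUSG00000038943; chromosome 7, 80294450 to 80316259, plus strand), had the smallest p of the role. It was at 2086, 1884 and 1831 in the knockouts, against 3566, 3240 and 3641 in the controls, a change of -0.85 (SE 0.07, limma adjusted p = 0.000325).

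Anln, encoding the ring scaffold anillin, changed by -0.77 (SE 0.09), and Iqgap3, a scaffold protein gene, by -0.78 (SE 0.07). Cep55, which organises abscission at the midbody, changed by -0.73 (SE 0.10). Cit, the citron kinase of the midbody, changed least of the role. It stood at 327, 303 and 356 in the knockouts, against 491, 512 and 525 in the controls (log2 fold change -0.63, SE 0.09, limma adjusted p = 0.00195). Diap3, the formin gene left out by its name, was at 447, 397 and 346 in the knockouts and at 587, 598 and 561 in the controls. It changed by -0.56 (SE 0.10; adjusted p = 0.00571 in limma), in the same direction as the 7 counted genes.

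**Figure D4:**
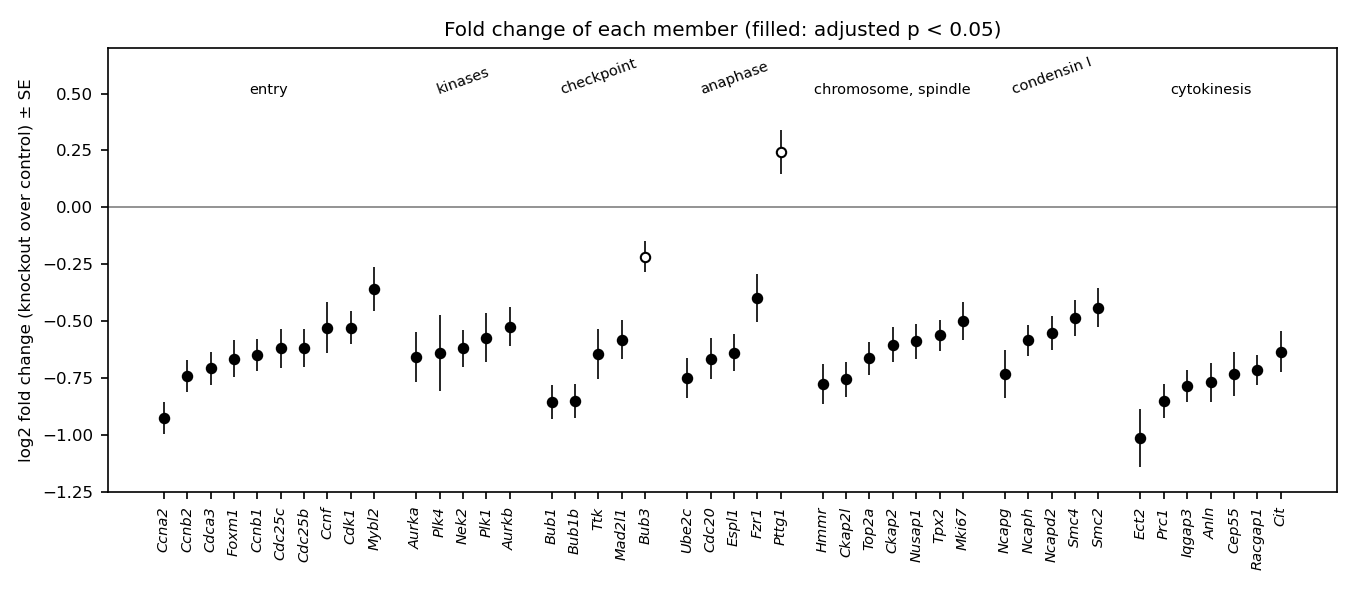
Log2 fold change of each member, double knockout over control (y axis), with its SE, by role and ordered by size within a role (x axis); filled points passed an adjusted p of 0.05 and open points did not. Ect2 is lowest at -1.01, Bub3 (-0.22) and Pttg1 (0.24) are open.

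Levels differed widely between members. Per kilobase of annotated exon, Ccna2 was the highest member in the controls, at 579 in the knockouts and 1101 in the controls, and Plk4 the lowest in both groups, at 8.66 in the knockouts and 13.5 in the controls. On the same scale Smc4 had 678 in the knockouts and 949 in the controls, the highest knockout level of the members, while its ring partner Smc2 had 199 in the knockouts and 270.0 in the controls. Exons of every annotated transcript were counted in the length, which lowers the level of genes with many rare exons. Across the 44 genes the log2 fold change was weakly related to the control level per kilobase (Spearman rho -0.19) and hardly to exon length (rho 0.01), given as a description over genes of the same 6 libraries.

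Exons of 12 members overlap a gene on the opposite strand, and the sources used here do not say whether counting used strand. Of the 5 overlaps of over 500 bases, 3 were with neighbours that did not pass in limma: Lcorl (beside Ncapg, log2 fold change -0.21), Rccd1 (beside Prc1, -0.03) and Exosc9 (beside Ccna2, -0.15). Gm3550, beside Cdc25c, averaged 11.7 in the knockouts and 27.7 in the controls and fell (-1.29, limma adjusted p = 0.0455). Tnnc2, beside Ube2c, averaged 1 in the knockouts and 0.333 in the controls. Oip5, which shares 172 bases with Nusap1, fell too (-0.64, limma adjusted p = 0.0190). How far reads of such pairs were exchanged was not tested.

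The other genes of mitosis, in lists chosen with earlier results of these data known, moved less uniformly. Of all genes tested, 8.56% fell and 8.61% rose, and the counts of these lists stand beside those shares. Of 17 further regulators of mitotic entry 11 fell and 0 rose, with a median log2 fold change of -0.39. Cks2, encoding a small subunit of CDK complexes, was at 722, 643 and 679 in the knockouts and 1127, 1092 and 1219 in the controls, a change of -0.75 (SE 0.08). Cdkn3, a CDK phosphatase gene, changed by -1.02 (SE 0.11). Of 19 subunits and regulators of the anaphase-promoting complex 3 fell and 0 rose, with a median of -0.08. These were Trip13, which recycles MAD2, at -0.78 (SE 0.10), Ube2s, which extends ubiquitin chains, at -0.54 (SE 0.10), and Fbxo5, encoding the inhibitor EMI1, at -0.58 (SE 0.12). None of the 3 is a core subunit of the complex. Where a list held 3 calls or fewer all are named, a choice made after the values were seen. Of 8 MuvB and NF-Y genes 3 fell: Nfyc by 0.36 on the log2 scale (SE 0.06), Lin9 by 0.47 (SE 0.09) and Lin54 by 0.35 (SE 0.10).

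Of 15 cohesin genes 6 fell, with a median of -0.13. They included Rad21, the kleisin cut by separase, which changed by -0.50 (SE 0.07), and Esco2, the S-phase acetyltransferase, by -0.74 (SE 0.11). Among 24 centrosome and spindle genes 12 fell (7 without knockout replicate 2 and 8 without knockout replicate 3), with a median of -0.33, among them Aspm (-0.68, SE 0.07) and Spag5 (-0.69, SE 0.08). In 20 genes of abscission and the contractile ring 6 fell, with a median of -0.06. The smallest p-values were those of Arhgef39 (-0.90, SE 0.11) and Shcbp1 (-0.84, SE 0.12), and Arhgap11a, Depdc1a, Ska3 and Fam64a also fell. Rhoa, the myosin genes Myh9 and Myh10, Tsg101, Pdcd6ip, Spast and the Chmp and Vps4 genes of the list did not pass in limma. The lists nearest in kind had the medians nearest that of the members. Of 24 kinetochore genes 20 fell, with a median of -0.62, with the smallest p-values in Cenpf (-0.77, SE 0.08) and Spc24 (-0.86, SE 0.09). Of 29 replication genes 23 fell, with a median of -0.50, with the smallest p-values in Rrm2 and Rrm1. Against a fold change of 1.2, 11 kinetochore and 5 replication genes were lower, against 28 of the 44 members. Without knockout replicate 2, 19 kinetochore genes, 16 replication genes and 38 members fell. No gene of these 9 lists rose in limma (2 of 159 were higher at an unadjusted p under 0.05, and limma-voom called 0 higher). With values scaled to equal totals, and likewise with the replicate block, 1 gene of the anaphase-promoting complex list and 1 of the abscission list rose. Without control replicate 2, 1 gene of the abscission list rose. The difference between the lists was not tested.

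Cell type markers changed too, and their part in the result was not tested. Median log2 fold changes were positive, opposite to the members, for macrophage (0.90), fibroblast (0.33), endothelial and endocardial (0.31), epicardial (0.28) and mural (0.25) markers. They were negative for cardiomyocyte (-0.16) and erythroid (-0.48) markers. Of all genes tested, 8.56% fell and 8.61% rose, and the counts below stand beside these shares. The summed value of 10 macrophage markers was 2660 to 3920 in the knockouts and 1796 to 2081 in the controls, and 8 of the 10 rose. For 10 endothelial and endocardial markers it was 25041 to 27743 in the knockouts and 21072 to 21620 in the controls, with 6 higher. Of 9 fibroblast markers 4 rose (2 without knockout replicate 2), with sums of 121894 to 152139 in the knockouts and 93558 to 108904 in the controls. Of 8 epicardial markers 1 rose, Tcf21 (log2 fold change 0.78), and 3 rose with values scaled to equal totals or without control replicate 3. The 8 summed to 5184 to 5901 in the knockouts and 4351 to 4856 in the controls. Of 6 mural markers 0 rose in limma (4 at an unadjusted p under 0.05, 0 in limma-voom, 1 without knockout replicate 1) and 1, Myh11, fell, with sums of 10349 to 11886 in the knockouts and 8835 to 10146 in the controls. Of 12 cardiomyocyte markers 2 fell, Actn2 and Actc1, and the median log2 fold change was -0.16, against -0.64 for the mitotic members. With quantile normalization the cardiomyocyte median was -0.03, and 1 fell and 2 rose. In limma 1 fell without control replicate 1 or knockout replicate 1, and 0 fell with no filter, without control replicate 2 or 3 and without knockout replicate 2 or 3.

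Of 9 erythroid genes tested 0 passed in limma (5 were lower and 1 higher at an unadjusted p under 0.05, and limma-voom called 0; 3 fell without control replicate 1, 3 fell and 1 rose without knockout replicate 3, and 1 rose without knockout replicate 1), with sums of 30761 to 37941 in the knockouts and 38040 to 66307 in the controls, of which control replicate 3 held the highest. No marker of these lists was at 0 in any heart. The erythroid gene Hbb-bh1, with a mean of 3.50, was too low to be tested. Embryo sex, read from Xist and Y-linked genes, was mixed in both groups, with knockout replicates 1 and 3 and control replicate 2 male. With sex as a term 42 members were lower, the same number as without it.

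**Figure D5:**
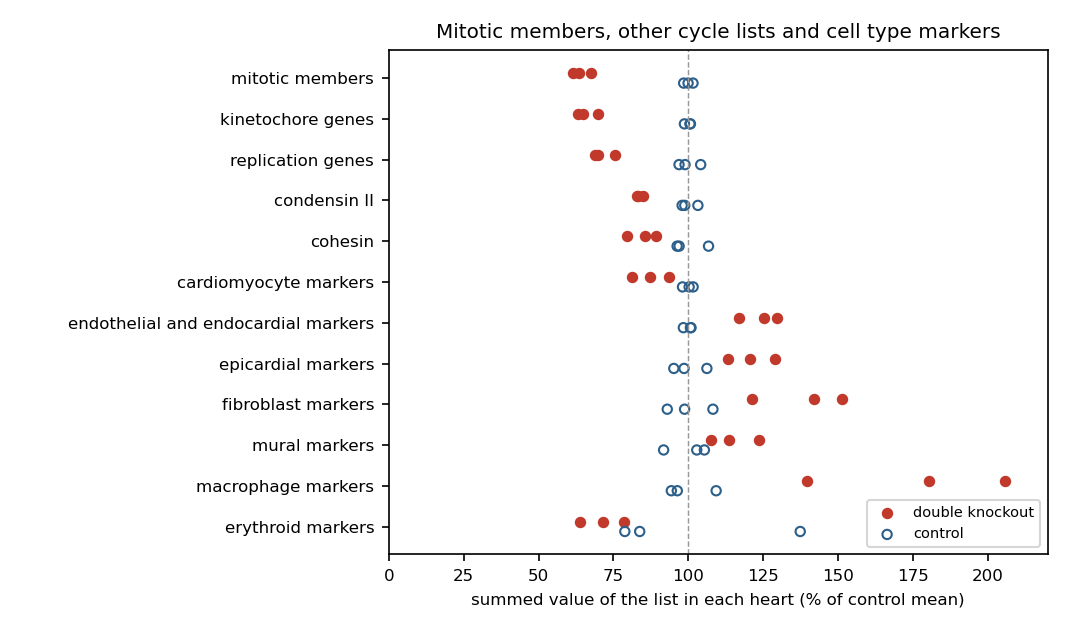
Summed value of the mitotic members, of other cell cycle lists and of cell type markers in each heart as a percentage of the control mean (x axis), with filled points for double knockouts above open points for controls. The members stand at 67.6%, 61.6% and 63.5% in the knockouts, cardiomyocyte markers at 81.1% to 93.5%, and macrophage markers at 139.7% to 206%.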

How the data were processed

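Hearts were sequenced as paired 75-base reads from stranded poly(A) libraries, per the labels' protocols. The submitters' processing notes name mm10, Trimmomatic, STAR 2.4.2a, featureCounts 1.5.0, DESeq and DESeq2, with no parameters. The deposited values are a score: whole reads per gene divided by a factor per heart and rounded, so raw read numbers were not tested. Depth was estimated from the step between neighbouring values, and precision at low values rests on it.

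All 6 hearts entered 1 model in limma 3.58.1 (R 4.3.3) on log2(value + 1), with the group as its only term. It covered 15556 genes with a mean of at least 10, with Benjamini-Hochberg adjustment over all of them and a threshold of 0.05. A fold change is on the log2(value + 1) scale and understates changes of low genes. The script was tested on simulated data. Nothing says that the 3 samples of a group came from separate litters, so p-values measure the spread between these samples. Partner ratios were compared by exact two-sided permutation. Lengths and coordinates came from GENCODE M21 and promoters from RefSeq.

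The members and lists were chosen with earlier results of these data known. Values in every heart are given for the member of each role with the smallest p and the one with the log2 fold change nearest 0, for members not past the threshold, for 5 partner pairs and, of other lists, for genes among the 2 smallest p-values.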

Additional observations from a re-analysis of the deposited data

How the results depend on the processing

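The count of 42 members lower was also 42 with values scaled to equal totals, pseudocounts of 0.1 and 10, quantile normalization, sex as a term and limma-voom on estimated reads. It was 39 with no filter, 43 with a stricter filter, 28 against a fold change of 1.2 and 38 to 42 without single hearts, and no member was higher under any of these. No member's direction reversed. Without the filter Mybl2, Plk4 and Fzr1 lost their calls. Over all genes 2670 passed, against 418 with a fold change of 1.2, 1755 with no filter and 1319 to 2371 without single hearts (1669 without control replicate 3, 1319 without double knockout replicate 2); the cause was not tested. Scaling to equal totals gave 1569 higher and 1091 lower, against 1339 higher and 1331 lower as deposited. Deviations of same-numbered hearts correlated at -0.04, -0.37 and 0.05, and each knockout correlated best with a control of another number. Same-numbered hearts were of opposite sex, so each replicate block held both sexes. Knockouts and controls of the same sex correlated at 0.21, 0.27, 0.12 and 0.20, and the remaining ones of opposite sex at -0.18 and -0.25. Whether the replicate numbers paired the samples cannot be told from these correlations, and the part of sex in them was not tested. With the replicate block 43 members were lower and 3530 genes passed, 4 erythroid markers were lower and 4 mural markers were higher. Without single hearts the difference in the log2 ratio of Pttg1 to Espl1 was 0.82 to 0.97, that of Bub1b to Bub3 -0.67 to -0.60, that of Cdc20 to Fzr1 -0.32 to -0.21, that of Ccnb1 to Cdk1 -0.17 to -0.08 and that of Ncaph to Smc2 -0.21 to -0.06. The low values of Plk4, 51 to 99, limit its precision.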
